A study of Mus musculus with 12 samples.

Results

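MHC class II molecules were followed here through 5 of the 561 genes counted in splenic erythroid cells of the mouse. The 5 genes are H2-Aa, H2-Ab1, H2-Eb1 and H2-Ea-ps, which specify the chains of the classical class II molecules, and Cd74, which encodes the invariant chain. They were taken by name from the deposited tables, and all 5 passed the filter on low counts. Erythroid cells, recognised by the Ter-119 antigen of maturing red cells, were enriched with magnetic beads from spleens of adult male F1 mice (CBA x C57BL/6), 3 to 5 months old, and RNA of 500000 cells was counted per sample on the nCounter Mouse Immunology v1 panel. Normal mice were kept under standard conditions, blood loss mice had 0.5 to 0.8 mL of blood drawn from behind the eye under isoflurane, and hypoxia mice spent 16 h in a hypobaric chamber at -46 kPa, an altitude above 4500 m. Spleens of all 3 groups were taken on day 3. The selection enriches Ter-119-bearing cells and does not remove other cells, no further sort is named in the labels, and no label ties a sample to an animal, so that the tests compare samples whose spread may in part be technical.

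Class II molecules display peptides from ingested material to CD4 T cells. Each molecule pairs an alpha with a beta chain: in the mouse, H2-Aa and H2-Ab1 give the alpha and beta chains of I-A, and H2-Ea and H2-Eb1 those of I-E. The invariant chain, Cd74, holds newly made pairs together, blocks their groove and leads them to the compartment where peptides are loaded. In spleen these genes are known from B cells, dendritic cells and macrophages, where the transactivator Ciita drives them through shared promoter elements named the S, X and Y boxes. H2-Ea is not transcribed from the C57BL/6 haplotype, which lacks its promoter region, whereas the CBA haplotype carries a working gene. RefSeq's annotation of the C57BL/6J assembly lists H2-Ea-ps (symbol H2-Ea there) as a pseudogene, though as a transcribed one. An F1 mouse has 1 working copy.

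The 4 chain genes are close neighbours on mouse chromosome 17, in the order H2-Ab1, H2-Aa, H2-Eb1 and H2-Ea-ps, and Cd74 lies on another chromosome. Promoter sequences are shown for H2-Aa and H2-Eb1, the 2 chain genes for which a window was available. The ratio of their counts differed widely among normal samples, while both carry the letters of the same shared element. No window was available for H2-Ab1 and H2-Ea-ps, and Cd74 was left out of the display. The windows run from 250 bases before to 50 bases after the gene's start in RefSeq (GRCm38.p6, the C57BL/6J sequence). H2-Aa is at chr17:34287774-34288073 on the minus strand and H2-Eb1 at chr17:34305617-34305916 on the plus strand. Capitals mark matches to the Y box letters CTGATTGG, the X2 box letters TGACGTCA and the letters of the X1 box, searched on both strands.
H2-Aa: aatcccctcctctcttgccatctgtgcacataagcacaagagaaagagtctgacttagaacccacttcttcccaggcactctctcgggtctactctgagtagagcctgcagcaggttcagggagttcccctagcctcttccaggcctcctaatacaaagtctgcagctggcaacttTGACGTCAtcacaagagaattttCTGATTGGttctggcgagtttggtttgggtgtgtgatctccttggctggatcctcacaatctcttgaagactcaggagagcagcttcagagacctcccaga
H2-Eb1: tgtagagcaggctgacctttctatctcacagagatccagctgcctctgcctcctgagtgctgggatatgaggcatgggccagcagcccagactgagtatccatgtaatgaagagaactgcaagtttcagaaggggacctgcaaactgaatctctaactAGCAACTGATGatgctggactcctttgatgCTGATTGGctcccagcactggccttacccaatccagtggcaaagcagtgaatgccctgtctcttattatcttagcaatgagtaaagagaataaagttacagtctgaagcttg
The Y box letters began 51 bases before the start in H2-Aa and 62 bases before it in H2-Eb1. They occur in 4.10% of 32851 RefSeq promoter windows of this length. The X2 letters were found in H2-Aa only, 74 bases before the start, and occur in 1.79% of windows. The X1 letters were found in H2-Eb1 only, 92 bases before the start, and occur in 0.0700% of windows. The marked letters do not overlap each other. A match is a description of these letters and not evidence of binding, and the CBA allele of the F1 mice may differ from this sequence.

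The comparisons rest on 3 normal, 4 blood loss and 4 hypoxia samples. Normal 4 was not used, because each of its 561 counts is the median of the other 3 normal columns plus 3. Total counts ran from 43956 to 253712 in the normal group, 44254 to 81370 in the hypoxia group and 7016 to 31006 in the blood loss group, so precision was lowest after blood loss. Levels below are raw counts divided by a factor from 6 housekeeping genes (scaled counts). A gene was called at an adjusted p under 0.05 in an edgeR quasi-likelihood fit over 252 genes. Each gene is read by its own probe, so levels and ratios are compared between samples and not between genes as numbers of molecules. Normal 1 stands apart from Normal 2 and Normal 3 in these genes, and results against normal are therefore also given without it and with it as the only normal sample.

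Class II transcripts took a large part of all counts in 9 of the 11 samples. Summed, the 5 genes made up 27.2% of all counts in Normal 1 (95% Wilson interval 26.8 to 27.6), 7.41% in Normal 2 (7.28 to 7.54) and 6.40% in Normal 3 (6.31 to 6.498). After blood loss they made up 22.2% ± 4.38 (SD, n = 4) and after hypoxia 27.4% ± 2.53 (SD, n = 4). Intervals cover counting error only. Cd74 ranked 1 or 2 among the 547 endogenous genes by raw count in every treated sample and in Normal 1, but 18 in Normal 2 and 12 in Normal 3. H2-Aa ranked between 1 and 3 in the same 9 samples, and 17 and 14 in Normal 2 and Normal 3. H2-Eb1 ran the other way: it ranked 1 and 3 in Normal 2 and Normal 3, 8 in Normal 1, 14 to 21 after blood loss and 9 to 11 after hypoxia.

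Cd74, the invariant chain, had scaled counts of 4723, 669 and 612 in Normal 1, Normal 2 and Normal 3. It stood at 5650, 6203, 4613 and 3697 in Acute blood loss 1 to 4, and at 3945, 5434, 4805 and 4274 in Acute hypoxia 1 to 4. Normal 1 thus lay within the range of both treated groups, and Normal 2 and Normal 3 lay far below every treated sample. In the deposited normalized counts Normal 1 (6261) lay above every blood loss sample (5544 or less) and within the hypoxia range. The log2 fold change was 1.34 (SE 0.64, adjusted p = 0.117) after blood loss and 1.21 (SE 0.64, adjusted p = 0.12) after hypoxia, and neither met the threshold. Leaving out Normal 1, the changes were called at 2.98 (adjusted p = 1.23e-06) and 2.85 (adjusted p = 1.06e-06), and with Normal 1 as the only normal sample they were 0.094 and -0.033.

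H2-Aa, the alpha chain of I-A, had much the same profile. Its scaled counts were 4659, 679 and 592 in Normal 1 to 3, then 3432, 5658, 3003 and 3367 in Acute blood loss 1 to 4, and 4228, 5010, 4366 and 3903 in Acute hypoxia 1 to 4. Again only Normal 1 overlapped the treated samples. In the deposited normalized counts Normal 1 (6178) lay above every blood loss sample (4542 or less) and within the hypoxia range. The log2 fold change was 0.97 (SE 0.62, adjusted p = 0.238) after blood loss and 1.15 (SE 0.63, adjusted p = 0.131) after hypoxia. Without Normal 1 these were 2.61 and 2.78, both called, and with Normal 1 alone -0.27 and -0.090.

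H2-Ea-ps, the alpha chain of I-E, was counted in every sample, with a lowest raw count of 166. Scaled counts were 1601, 572 and 239.8 in Normal 1 to 3, then 1206, 2578, 1231 and 1298 in Acute blood loss 1 to 4, and 2295, 1700, 2014 and 1853 in Acute hypoxia 1 to 4. All hypoxia samples lay above all normal samples, whereas blood loss samples overlapped Normal 1. In the deposited normalized counts every blood loss sample (2070 or less) lay below Normal 1 (2123). The gene rose after hypoxia (log2 fold change 1.29, SE 0.51, adjusted p = 0.0451) and did not pass after blood loss (0.98, SE 0.51, adjusted p = 0.145). The hypoxia call held in 14 of 25 alternatives, and it was lost without Normal 2 (1.10), without Normal 3 (0.86), without Acute hypoxia 1 (1.21), without Acute hypoxia 3 (1.28) and with Normal 1 alone (0.30). It was also lost without Acute blood loss 1, 3 or 4 (1.29 in each case), samples that only inform the shared estimate of spread.

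In scaled counts the beta chains were lower in every treated than in every normal sample. H2-Eb1, the beta chain of I-E, had scaled counts of 993, 1561 and 1021 in Normal 1 to 3, then 458, 598, 356 and 306 in Acute blood loss 1 to 4, and 614, 676, 726 and 722 in Acute hypoxia 1 to 4. Every treated sample lay below every normal sample, and every blood loss sample below every hypoxia sample. In the deposited normalized counts Acute hypoxia 3 (1188) lay above Normal 3 (1161), while every blood loss sample stayed below every normal sample. The fall after blood loss passed (log2 fold change -1.47, SE 0.33, adjusted p = 0.00209) and held in 24 of 25 alternatives, the exception being Normal 1 alone (-1.20, adjusted p = 0.0711). After hypoxia the log2 fold change was -0.80 (SE 0.33, adjusted p = 0.0521), just above the threshold. The call was made in 4 of 25 alternatives, among them without Normal 1 (-0.92, adjusted p = 0.0203) and without Acute blood loss 2 (-0.80, adjusted p = 0.0441).

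H2-Ab1, the beta chain of I-A, had scaled counts of 1527, 197 and 161 in Normal 1 to 3, then 83.0, 137, 104 and 94.2 in Acute blood loss 1 to 4, and 141, 144, 158 and 139 in Acute hypoxia 1 to 4. Here too no treated sample reached a normal sample in scaled counts, but Normal 2 and Normal 3 lay close above them and Normal 1 far above. Every hypoxia sample (192 or more) lay above Normal 2 (181) and Normal 3 (183) in the deposited normalized counts, and below Normal 1 (2024). Blood loss samples (110 or less) stayed below every normal sample in those counts. The gene fell after blood loss (log2 fold change -2.57, SE 0.64, adjusted p = 0.01) and after hypoxia (-2.10, SE 0.60, adjusted p = 0.013). The size of both falls rests on Normal 1: without it they were -0.77 (adjusted p = 0.0291) and -0.30 (adjusted p = 0.351), and with it alone -3.87 and -3.39. The hypoxia call was also lost without Acute hypoxia 2 (-2.09, adjusted p = 0.0738), without Acute hypoxia 4 (-2.07, adjusted p = 0.0619) and with TMM factors (-1.80, adjusted p = 0.0853). Fitted with only the normal and blood loss samples, the fall after blood loss was -2.57 (adjusted p = 0.118) and no longer called. In Acute blood loss 3 the raw count was 14, the lowest of any member.

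**Figure D1:**
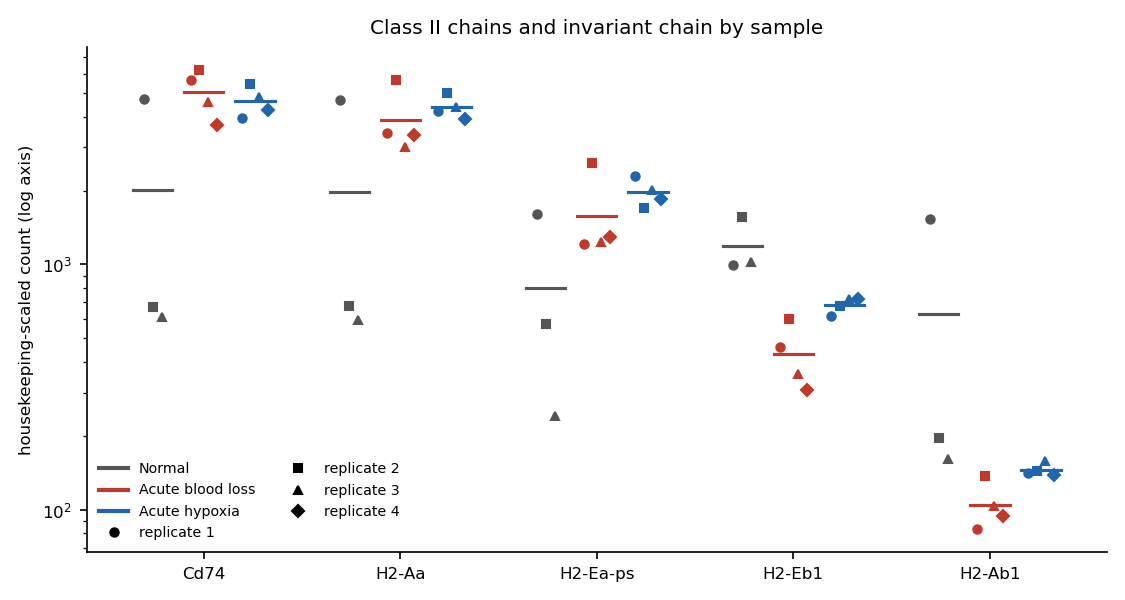
Housekeeping-scaled counts (log axis) of the 5 genes, 1 point per sample, with horizontal bars at group means of 3 normal, 4 blood loss and 4 hypoxia samples. Normal 1 sits with the treated samples for Cd74 and H2-Aa, whereas every treated sample is below every normal sample for H2-Eb1 and H2-Ab1.

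Between the treated groups no member was called, with 8.73% of 252 genes called in either direction. The log2 fold changes of hypoxia against blood loss were -0.13 for Cd74 (SE 0.57), 0.18 for H2-Aa (SE 0.56), 0.31 for H2-Ea-ps (SE 0.46), 0.48 for H2-Ab1 (SE 0.60) and 0.67 for H2-Eb1 (SE 0.31). The sign for Cd74 turned with 4 of 5 other library factors. The smallest adjusted p was that of H2-Eb1, 0.174, with an unadjusted p of 0.0422 (edgeR), and H2-Eb1 was called higher after hypoxia with TMM factors (0.92, adjusted p = 0.0398) and with median-of-ratios factors (1.53, adjusted p = 0.00198). In scaled counts the groups did not overlap in 2 members, H2-Eb1 and H2-Ab1, against 13.1% of all tested genes. In the deposited normalized counts every hypoxia sample lay above every blood loss sample in each member. For Cd74 this was 6196 or more against 5544 or less, and for H2-Aa 5658 or more against 4542 or less. The share of all tested genes without overlap was not computed for those counts. Compared with scaled counts, the deposited counts were higher in every hypoxia sample and lower in every blood loss sample. That shift applies to every gene of a sample, so the separation depends on the factor and is not read as particular to the members. The margin in scaled counts of H2-Ab1 was narrow, with a highest blood loss value of 137 and a lowest hypoxia value of 139.

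Counted together, 2 members fell and 0 rose after blood loss, where 27% of 252 genes were called, 17.1% lower and 9.92% higher. After hypoxia 1 fell and 1 rose, where 40.5% were called, 32.9% lower and 7.54% higher. The split of all calls depended on the library factor: it was 25 higher and 43 lower after blood loss, 39 and 32 with TMM and 13 and 114 with median-of-ratios factors, and 19 and 83 after hypoxia, 55 and 44 with TMM and 51 and 50 with median-of-ratios factors. In scaled counts normal samples did not overlap blood loss samples in 2 members and 27.4% of all tested genes, nor hypoxia samples in 3 members and 42.9%. In the deposited normalized counts hypoxia samples did overlap normal samples in H2-Eb1 and H2-Ab1. The median log2 fold change of the 5 genes was 0.97 after blood loss and 1.15 after hypoxia, and that of all tested genes was -0.24 and -0.49. With the other 5 library factors the median of all tested genes ran from -0.63 to 0.05 and from -0.39 to 0.02, and between the treated groups it was -0.25 and ran from -0.16 to 0.60. H2-Eb1 and H2-Ab1 stayed negative and the other members positive under all 6 factors in both comparisons with normal. In bulk samples like these, fewer cells of a type and less RNA per cell cannot be told apart.

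**Figure D2:**
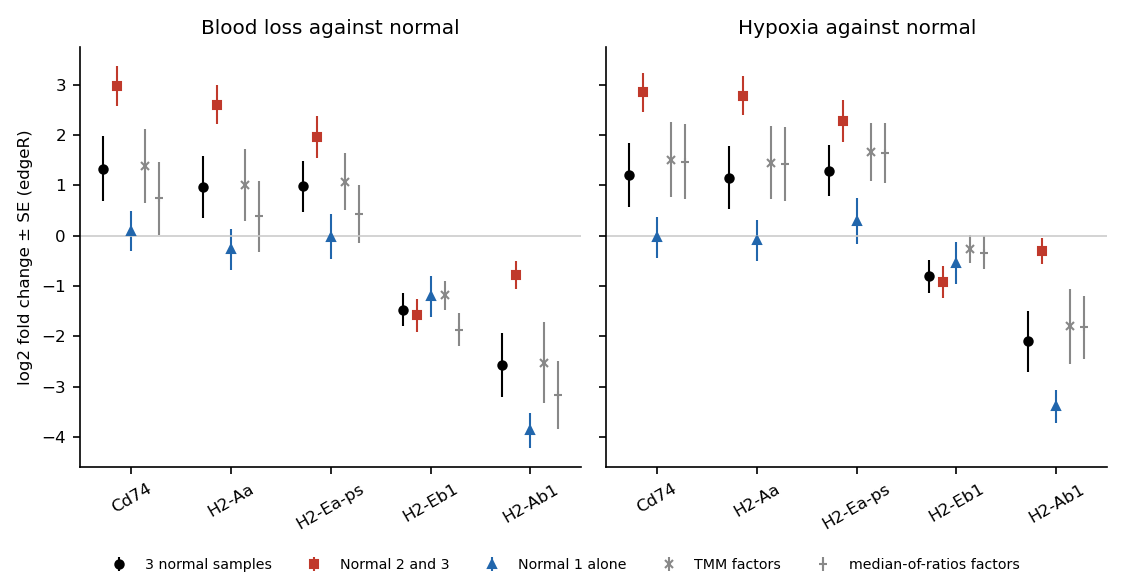
Log2 fold changes of the 5 genes against normal, with standard errors from the edgeR fit, for the 3 normal samples, for subsets of them and for other library factors. Cd74 and H2-Aa go from near 0 with Normal 1 alone to between 2.61 and 2.98 with Normal 2 and Normal 3, while H2-Eb1 stays below 0 throughout.

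Ratios between members within a sample need no scaling, and those over H2-Ab1 set all normal samples apart from all treated samples. The chains of I-A are given first. The raw count of H2-Aa was 3.05, 3.45 and 3.67 times that of H2-Ab1 in Normal 1, Normal 2 and Normal 3. It was 41.3, 41.2, 28.9 and 35.7 times that of H2-Ab1 in Acute blood loss 1 to 4, and 29.9, 34.9, 27.6 and 28.1 times in Acute hypoxia 1 to 4. All 3 normal samples stood close together in this ratio, although their scaled levels of both genes differed by far more, and no treated sample came near them. Even the treated ratio with the fewest counts, that of Acute blood loss 3 with 14 counts of H2-Ab1, had an exact 95% counting interval of 17.0 to 53.4. The geometric mean of the ratio was 10.8 times as high after blood loss and 8.87 times as high after hypoxia as in normal samples.

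In the ratio fit, an edgeR fit with the reference gene's count as library size, the log2 ratio of H2-Aa to H2-Ab1 rose by 3.44 after blood loss (SE 0.81, adjusted p = 0.000825) and by 3.15 after hypoxia (SE 0.80, adjusted p = 0.00411). Against the same reference, 13.1% of 251 genes were called after blood loss and 3.59% after hypoxia, and 41.4% and 21.5% did not overlap between the groups. The exact two-sided permutation test gave p = 0.0286 for each, the smallest it can give with 3 against 4 samples, and 0.0571 after adjustment over 30 ratio tests. Both calls of the ratio fit held in all 18 alternatives, also without Normal 1 and with Normal 1 as the only normal sample, with log2 changes of 3.08 to 3.59 and of 3.07 to 3.30.

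Cd74 and H2-Ea-ps moved against H2-Ab1 in the same direction. Cd74 over H2-Ab1 was 3.09, 3.40 and 3.803 in Normal 1 to 3, 39.3 to 68.0 after blood loss and 27.9 to 37.8 after hypoxia. Its treated groups did not overlap, and neither did those of 32.7% of 251 genes in their ratio to H2-Ab1. The log2 ratio rose by 3.84 (SE 0.82, adjusted p = 0.00021) and by 3.21 (SE 0.80, adjusted p = 0.00371), and both calls held in all 18 alternatives. H2-Ea-ps over H2-Ab1 was 1.05, 2.91 and 1.49 in Normal 1 to 3, 11.9 to 18.8 after blood loss and 11.8 to 16.2 after hypoxia. Its log2 ratio rose by 3.02 (SE 0.81, adjusted p = 0.00437) and by 2.90 (SE 0.80, adjusted p = 0.0131), and the hypoxia call was lost without Normal 3 (2.78, adjusted p = 0.0645) and without Acute hypoxia 1 (2.80, adjusted p = 0.0646). These 3 ratios share the counts of H2-Ab1 and are not independent of each other.

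The chains of I-E parted too, but with a wide spread among normal samples. H2-Ea-ps over H2-Eb1 was 1.61, 0.366 and 0.235 in Normal 1 to 3, 2.63, 4.31, 3.46 and 4.23 in Acute blood loss 1 to 4, and 3.74, 2.52, 2.78 and 2.57 in Acute hypoxia 1 to 4. Every treated sample lay above Normal 1, which itself lay well above Normal 2 and Normal 3. The log2 ratio rose by 2.32 after blood loss (SE 0.59, adjusted p = 0.00152) and by 1.98 after hypoxia (SE 0.58, adjusted p = 0.0136). Against H2-Eb1, however, 70.1% and 29.9% of 251 genes were called in these comparisons, and 60.6% and 38.2% did not overlap, so the blood loss call is like that of most genes. The hypoxia call was lost without Normal 2 (1.66), without Normal 3 (1.55) and with Normal 1 alone (0.85).

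H2-Aa over H2-Eb1 was 4.69, 0.435 and 0.579 in Normal 1 to 3, 7.49 to 10.99 after blood loss and 5.41 to 7.41 after hypoxia. The log2 ratio rose after blood loss (2.26, SE 0.74, adjusted p = 0.00909) and not by the threshold after hypoxia (1.76, SE 0.72, adjusted p = 0.0679). Cd74 over H2-Eb1 behaved alike, with log2 changes of 2.63 (adjusted p = 0.00448) and 1.81 (adjusted p = 0.0679). With Normal 1 left out, the hypoxia changes were called, at 3.66 and 3.71. Between the treated groups the blood loss samples had the higher ratios without overlap, 7.49 or more against 7.41 or less for H2-Aa over H2-Eb1 and 10.4 or more against 8.04 or less for Cd74 over H2-Eb1, where 41.8% of 251 genes did not overlap in their ratio to H2-Eb1. Against H2-Eb1, 62.2% of 251 genes were called between the treated groups. The ratio fit over 11 samples called neither (adjusted p = 0.475 and 0.26), and without Normal 1 it called both (-0.50, adjusted p = 0.0334, and -0.82, adjusted p = 0.00102). The exact permutation test gave 0.0286 for both, the smallest possible with 4 against 4 samples, and 0.0571 adjusted.

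The Cd74 to H2-Aa count ratio stood near 1 in normal and hypoxia samples and was highest in Acute blood loss 1 and 3. These samples had the lowest total counts (15550 and 7016). Cd74 over H2-Aa was 1.01, 0.985 and 1.04 in the normal samples, 1.65, 1.10, 1.54 and 1.10 in Acute blood loss 1 to 4, and 0.933, 1.08, 1.10 and 1.10 in Acute hypoxia 1 to 4. Normal samples far apart in the scaled level of either gene thus had nearly the same ratio. No change of this ratio passed (adjusted p = 0.582 after blood loss and 0.934 after hypoxia), although all blood loss samples lay above all normal samples. These groups were free of overlap in 12.7% of 251 genes in their ratio to H2-Aa, and 80.1% were called after blood loss and 92.4% after hypoxia. H2-Aa over H2-Ea-ps ran from 1.19 to 2.91 in the normal group, 2.19 to 2.85 after blood loss and 1.84 to 2.95 after hypoxia, and Cd74 over H2-Ea-ps from 1.17 to 2.95, 2.41 to 4.69 and 1.72 to 3.20. Neither passed in either comparison with normal (adjusted p of 0.316 or more), with 67.7% and 92.4% of 251 genes called against H2-Ea-ps in the comparisons with normal.

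The beta chains did not keep a fixed proportion in normal samples. H2-Ab1 over H2-Eb1 was 1.54, 0.126 and 0.158 in the normal samples, 0.181 to 0.307 after blood loss and 0.193 to 0.230 after hypoxia. The treated samples thus lay between Normal 1 and the other two. The log2 change was -1.27 after blood loss (SE 0.71, adjusted p = 0.122) and -1.50 after hypoxia (SE 0.67, adjusted p = 0.109), and its sign turned without Normal 1 (0.81, adjusted p = 0.0369, and 0.59, adjusted p = 0.182).

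**Figure D3:**
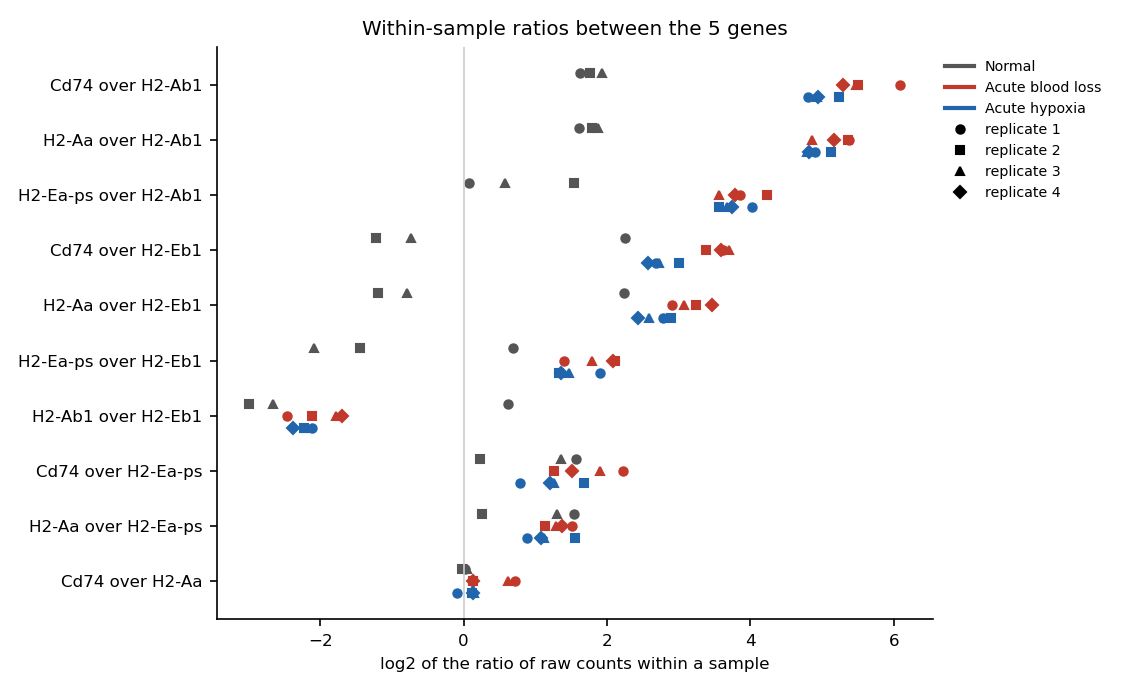
Log2 of the ratio of raw counts for the 10 pairs of members, 1 point per sample, coloured by group. The ratios over H2-Ab1 set all normal samples apart from all treated samples, whereas for Cd74, H2-Aa and H2-Ea-ps over H2-Eb1 Normal 1 lies nearer the treated samples than Normal 2 and Normal 3 do. For H2-Ab1 over H2-Eb1 it is Normal 1 that lies far from them.

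The make-up of the summed count shows the same pattern without a reference gene. H2-Ab1 gave 11.3% of the counts of the 5 genes in Normal 1 (95% Wilson interval 10.8 to 11.9), 5.35% in Normal 2 (4.96 to 5.77) and 6.13% in Normal 3 (5.77 to 6.51), against 0.966% ± 0.161 after blood loss (SD, n = 4) and 1.24% ± 0.0893 after hypoxia (SD, n = 4). H2-Eb1 gave 7.36%, 42.4% and 38.9% in the normal samples (intervals 6.90 to 7.84, 41.6 to 43.3 and 38.1 to 39.6), 3.87% ± 0.304 after blood loss and 5.83% ± 0.627 after hypoxia (SD, n = 4 each). Cd74 gave 35.0%, 18.2% and 23.3% in the normal samples (34.1 to 35.8, 17.5 to 18.9 and 22.7 to 24.0), 46.2% ± 5.52 after blood loss and 39.03% ± 2.83 after hypoxia.

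**Figure D4:**
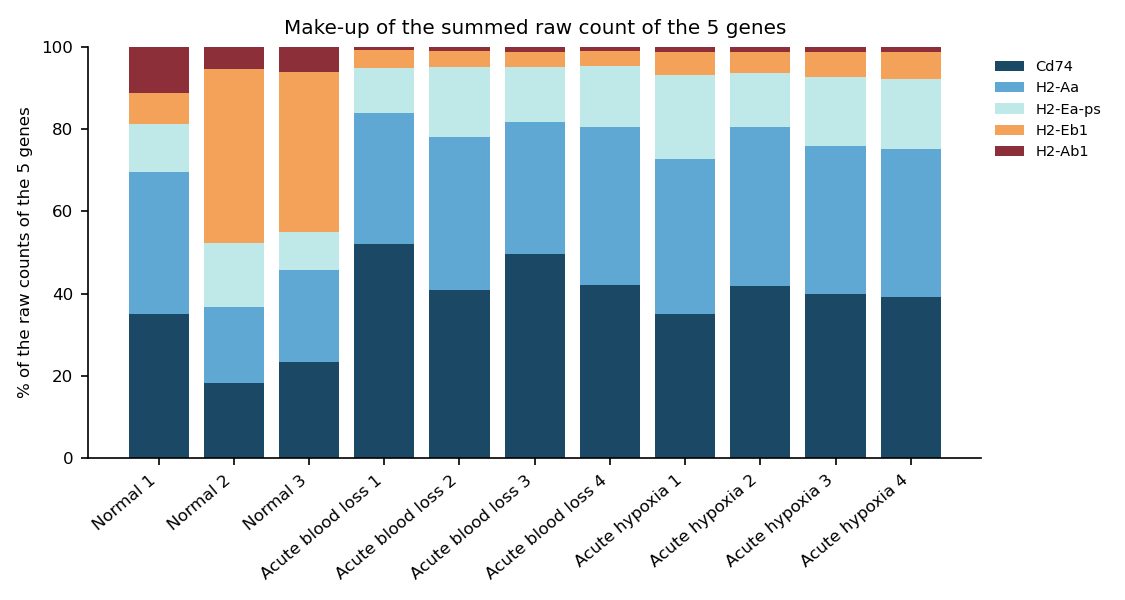
Share of each gene in the summed raw count of the 5 genes, as stacked bars for each of the 11 samples. The share of H2-Ab1 is 5.35% or more in the normal samples and at most 1.31% in the treated samples, and H2-Eb1 dominates only in Normal 2 and Normal 3.

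Over the 11 samples the scaled log2 levels of Cd74 and H2-Aa correlated at r = 0.98, those of Cd74 and H2-Ea-ps at 0.89 and those of Cd74 and H2-Eb1 at -0.63. These values mostly describe the distance of Normal 2 and Normal 3 from the rest. Over the 8 treated samples the same pairs stood at 0.52, 0.18 and 0.32. Among tested genes that are no members, the 3 most like Cd74 over the 11 samples were B2m, the light chain of class I molecules (r = 0.88), Cd83, a surface protein of activated antigen-presenting cells (0.82), and Igf2r (0.71). The same 3 genes in the same order were most like H2-Aa (0.89, 0.83 and 0.69) and H2-Ea-ps (0.91, 0.87 and 0.70). H2-Eb1 was most like Cd164 (0.98), the protease gene Ctss (0.96) and Il16 (0.94), and Cd164 and Ctss also led over the 8 treated samples (0.94 and 0.90). H2-Ab1 was most like Thy1 (0.76), Ifngr1 (0.76) and Cd4 (0.74), but over the 8 treated samples Blnk (0.97), Cd164 (0.90) and Traf6 (0.82) led instead. The genes most like Cd74, H2-Aa and H2-Ea-ps also changed there, with Ccl5 (0.92), Il21r (0.90) and Blnk (0.91) first. All points share the housekeeping factor of their sample, and the values are descriptions.

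Markers of other cells that express class II genes were measured in the same samples. Of 14 listed B cell markers 11 are on the panel, and their summed scaled count was 1765, 3457 and 2985 in Normal 1 to 3, 1080 to 2202 after blood loss and 1048 to 1842 after hypoxia. Cd79a and Tnfrsf13b were under a raw count of 20 in all 4 blood loss samples. For every 100 counts of these B cell markers there were 268, 19.4 and 20.5 counts of Cd74 in Normal 1 to 3, 206 to 523 after blood loss and 232 to 519 after hypoxia. For H2-Eb1 these were 56.3, 45.1 and 34.2 in the normal samples, 16.2 to 42.5 and 39.2 to 64.5. For H2-Ab1 they were 86.5, 5.69 and 5.40, then 4.71 to 7.69 and 7.54 to 13.7. Relative to B cell markers, both treated groups thus overlapped the normal samples in H2-Eb1 and in H2-Ab1, and Cd74 set Normal 2 and Normal 3 apart from all other samples.

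Of 12 dendritic cell markers 6 are on the panel, and their sum ran from 142 to 173 in the normal group, 81.3 to 112 after hypoxia and 89.2 to 127 after blood loss. The integrin gene Itgax and 4 others (Batf3, Xcr1, Cd209g and Clec4a4) were under a raw count of 20 in every treated sample. Batf3, Xcr1 and Cd209g were so in every normal sample too. A raw count depends on the total count of its sample, which was lowest after blood loss. Of 10 macrophage and monocyte markers 8 are on the panel, with sums of 208 to 284 in the normal group, 112 to 166 after blood loss and 32.0 to 79.7 after hypoxia. All 8 were under a raw count of 20 in every blood loss sample, as were 7 in every hypoxia sample. Marco, Msr1 and Cd163 were so in every normal sample too. In the same order, sums of 11 T cell markers were 376 to 657, 197 to 349 and 148 to 275, and those of 6 granulocyte markers were 1764 to 2394, 3057 to 7025 and 1648 to 3797. Of 9 erythroid and progenitor markers 4 are on the panel, with sums of 124 to 158 in the normal group, 198 to 776 after hypoxia and 269.8 to 572 after blood loss. The other 5 were not analysed here. Of the 4, Tal1 and Kit were under a raw count of 20 in every normal sample, Abcb10 and Kit in every blood loss sample and Kit in every hypoxia sample. The part of these cells in the class II results was not tested.

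Of the other genes of class II presentation 6 are on the panel. After blood loss 2 of them fell and 4 were not called, where 17.1% of all tested genes were called lower and 9.92% higher. Without Normal 1, 4 fell and 1 rose after blood loss, where 58 of 243 tested genes were called lower and 30 higher. After hypoxia 4 fell, 1 rose and 1 was not called, where 32.9% were called lower and 7.54% higher. The median log2 fold change of the 6 was -0.70 and -1.01, against -0.24 and -0.49 over all tested genes. Ciita, the transactivator of class II genes, stood at 82.8 ± 35.0 scaled counts in the normal group (SD, n = 3), 36.5 ± 14.4 after hypoxia and 58.7 ± 17.5 after blood loss (n = 4 each). It fell after hypoxia (log2 fold change -1.19, SE 0.34, adjusted p = 0.00651) and did not pass after blood loss (-0.55, SE 0.37, adjusted p = 0.258). The lowest normal value of Ciita (45.2) lay within its hypoxia range (19.3 to 54.0). H2-DMb2, a chain of the peptide-loading molecule H2-M, fell after hypoxia (-0.95, adjusted p = 0.0137), and H2-DMa, its partner chain, did not pass in either comparison (-0.59, adjusted p = 0.132, and -0.50, adjusted p = 0.151). H2-Ob, a chain of the modulator H2-O, and Ctss, which cleaves the invariant chain, fell in both comparisons. Cd83 rose after hypoxia (1.13, SE 0.40, adjusted p = 0.0247), although its highest normal value (605) lay within its hypoxia range (394 to 1051). With TMM factors the lower calls after hypoxia numbered 1 instead of 4, and with median-of-ratios factors those after blood loss numbered 5 instead of 2.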

How the data were processed

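The deposited table of raw counts (whole, 1 or more) covers 561 genes, 14 of them housekeeping genes, in 12 columns. The deposited normalized count signal is the raw count divided by 1 factor per sample, and the deposited log2 values are log2 of that signal plus 1, as found from the values. Both served to check the sample columns. The normalized counts are also given beside the scaled counts where stated, and neither was used in a fit. How background was handled is not given in the sources used here.

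Raw counts of 11 samples were fitted with edgeR 4.0.16 (glmQLFit, robust) in R 4.3.3, group being the only term. Libraries were scaled by the geometric mean count of 6 housekeeping genes, those averaging 100 counts or more. Endogenous genes with a count of 20 or more in at least 4 samples were tested (252), with Benjamini-Hochberg adjustment over all of them. For 10 pairs of members the reference gene's count replaced the library size. Such a fit carries the reference gene's own spread into every ratio, so the share of all genes called stands beside it. The fits were tested on simulated counts. Alternatives included DESeq2 1.42.0 and limma 3.58.1. The members, lists and tests were chosen with earlier results of these data known. Named genes are the members, the listed class II and interferon-gamma genes and the 3 genes most like each member. Same-numbered samples were not paired (correlations of -0.254 to 0.13 over 10 pairs). Values of some listed genes are not reported here.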

Additional observations from a re-analysis of the deposited data

Results flagged for a closer look

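In 30 groups of 4 treated samples, over the scaled counts of the members and their ratios, 3 had 1 sample far from the others. Chance alone sets 1 sample apart in about 1 in 20 groups. The scaled count of H2-Aa was 5658 in Acute blood loss 2, and the next highest blood loss sample stood at 3432. The scaled count of H2-Ea-ps was 2578 in the same sample, against 1298 in the next highest. The ratio of Cd74 over H2-Aa was 0.933 in Acute hypoxia 1 and 1.08 in the next lowest hypoxia sample.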

How the results depend on the processing

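Of 369 values of member fold changes under alternatives 323 kept their direction and side of the threshold, and of 540 ratio values 501 did. Members called higher after blood loss numbered 0, and 1 without a count filter or with limma, 2 with all 12 columns and 0 to 3 when 1 sample was left out. Members called lower numbered 2, and 1 with DESeq2, which gave no adjusted p for H2-Aa and H2-Ab1 (left out here), with Normal 1 alone and with only the 2 groups fitted (2 to 2 when leaving out 1 sample). After hypoxia 1 rose, and 0 with all 14 housekeeping genes, without Rpl19, with Normal 1 alone or in the 2-group fit, 3 with limma or 12 columns and 0 to 3 when leaving out 1 sample. There 1 fell, and 0 with TMM, the replicate block or thinned counts, 2 with 12 columns and 0 to 2 when leaving out 1 sample. Between treatments 1 was called higher with TMM or median-of-ratios factors. Ratios called higher numbered 6 after blood loss (6 to 8 when leaving out 1 sample) and 4 after hypoxia (2 to 6). Ratios called lower numbered 0, and 1 in either comparison and 3 between treatments with Normal 1 alone (0 to 1, 0 to 1 and 0 to 3 when leaving out 1 sample).

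With Normal 1 as the only normal sample, which assumes that it varies like the other groups, signs turned for H2-Aa (-0.27 after blood loss, -0.090 after hypoxia), H2-Ea-ps (-0.018 after blood loss), Cd74 (-0.033 after hypoxia), H2-Aa over H2-Ea-ps (-0.21 and -0.36) and Cd74 over H2-Ea-ps (-0.30 after hypoxia). H2-Aa over H2-Ea-ps also turned without Normal 2 (-0.094 and -0.25) and, after hypoxia, without Acute hypoxia 2 (-0.10), as did Cd74 over H2-Ea-ps after hypoxia (-0.20 without Normal 2 and -0.058 without Acute hypoxia 2). H2-Ab1 over H2-Eb1 turned without Normal 1 (0.81 and 0.59). When leaving out 1 sample, H2-Aa over H2-Ea-ps ran up to 0.46 after blood loss and 0.31 after hypoxia, Cd74 over H2-Ea-ps up to 0.37 after hypoxia, and H2-Ab1 over H2-Eb1 down to -1.75 and -1.98. Between treatments Cd74 turned with TMM (0.12), median-of-ratios (0.73), all housekeeping (0.30) and total count factors (0.073), H2-Aa over H2-Ab1 with 10 added to both counts (0.014), and H2-Ea-ps over H2-Ab1 with 10 added (0.16) and without Acute blood loss 2 (0.016, and down to -0.22 without Acute hypoxia 1). None of these turned values was called except H2-Ab1 over H2-Eb1 after blood loss. The cause was not tested.

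Replicate numbers did not pair samples: 5 of 20 best correlations were with the same number. With the replicate block the fall of H2-Ab1 after hypoxia was -1.49 (adjusted p = 0.0736), and H2-Aa and Cd74 over H2-Eb1 after hypoxia were called at 2.35 and 2.48.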

Other observations

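Interferon-gamma is the classical inducer of Ciita and, through it, of class II genes. Of the 9 genes of its response on the panel 8 were tested, and after blood loss 4 fell and 1 rose, with 17.1% of all tested genes called lower and 9.92% higher. The receptor chain gene Ifngr1 fell after blood loss and after hypoxia (log2 fold change -0.96, adjusted p = 0.0204, and -0.71, adjusted p = 0.0443, edgeR). With the other 5 library factors the lower calls after blood loss ran from 2 (TMM) to 6 (median-of-ratios), and the higher calls were 0 with median-of-ratios, all 14 housekeeping genes and total count factors. The kinase gene Jak2, the only higher call, rose after blood loss (0.81, adjusted p = 0.0479). Irf1, a transcription factor induced by interferons, fell after blood loss (-0.83, adjusted p = 0.0392) and was higher after hypoxia than after blood loss (1.39, SE 0.28, adjusted p = 0.00565). After hypoxia 3 of the 8 fell and 0 rose, with 32.9% of all tested genes called lower there. With TMM or median-of-ratios factors 2 rose and 1 fell after hypoxia. Ifng itself had raw counts of 1 to 6 in the treated samples and 1 to 30 in the normal samples, and was not tested. These raw counts depend on total counts, which were highest in the normal group. Mean scaled counts were 4.46 in the normal group, 8.05 after blood loss and 1.96 after hypoxia. With counts down to the lowest value of 1, these means are not read as a difference.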
